A study of Mus musculus with 20 samples.

Results

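In the left ventricle of mice fed pitavastatin, 46 probe sets stood apart from those of mice fed any of 3 other statins, and these 46 are described here. A probe set is the group of short probes on the array that reads 1 transcript. Members were chosen by their values: the lowest of the 12 pravastatin, rosuvastatin and atorvastatin arrays had to exceed the highest of the 4 pitavastatin arrays by at least 0.1 on the log2(signal + 16) scale, or the lowest pitavastatin array had to exceed the highest of the 12 by as much. The search covered the brighter 22518 of 45037 probe sets, and 48 met the rule (0.213%). Of these, 2 belong to symbols left out by the rule, which leaves 39 probe sets higher in the other statins and 7 higher in pitavastatin. The array annotation gives 41 members 1 gene symbol (40 genes, as Ago4 has 2 probe sets), 2 members several symbols and 3 members none. Of the 4 control hearts, controls 2, 3 and 4 lay nearer pitavastatin at 39, 42 and 35 of the 46 members, and control 1 lay nearer the other statins at 45.

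The hearts came from 20 male C57BL/6J mice with no induced disease, in 5 groups of 4, with 1 array per mouse. They were 6 weeks old on arrival, and feeding lasted 4 weeks after 2 weeks of acclimation. Groups received powdered tablets in the chow: pitavastatin calcium at 4.5 mg/kg/day, pravastatin sodium at 21.0 mg/kg/day, rosuvastatin calcium at 10.9 mg/kg/day or atorvastatin calcium hydrate at 11.4 mg/kg/day, while control mice had standard chow with no drug. The doses differ, so values of the statins are set side by side as they stood at those doses. The control arrays took no part in the selection, and they are the measurement of these probe sets that the rule left free, apart from the brightness filter, which used all 20 arrays.

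Statins block HMG-CoA reductase, the rate-limiting enzyme of the mevalonate pathway, which yields cholesterol and also the isoprenoid anchors of small GTPases. They act mainly in the liver, and how much of each drug reaches heart muscle depends on its transport and solubility. The member genes are described by role, in groups made after the members were known: kinases and signalling, transcription and chromatin, RNA processing and silencing, ubiquitin and protein turnover, membrane, lipid and cytoskeleton, and mitochondria and haemoglobin.

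The gap between the groups was narrow. Over the 39 probe sets lower in pitavastatin hearts, group means differed by 1.19- to 1.69-fold (median 1.35-fold), and over the 7 higher in pitavastatin hearts by 1.23- to 1.38-fold (median 1.31-fold). These differences made the selection, so they carry no test. Just inside the threshold lay Pogz, Rnf115 and Mbd1 with gaps of 0.105, 0.101 and, for Mbd1, just over the required 0.1, and just outside lay Eri1, Uba6 and Atp6v1a with 0.0996, 0.0993 and 0.0973. On the other side, Snrpb, Atp5d and Add3 closed the list at 0.116, 0.107 and 0.104, and Tle5, C030006K11Rik and Tctex1d2 missed it at 0.0963, 0.0950 and 0.0935. Of all tested probe sets, 0.182% lay lower in pitavastatin by the rule and 0.0311% higher. The same rule with another statin singled out against the remaining 12 statin arrays kept 0 probe sets for pravastatin, 1 for rosuvastatin (higher) and 4 for atorvastatin (2 lower, 2 higher). For the 4 controls against all 16 statin arrays it kept 0.

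**Figure D1:**
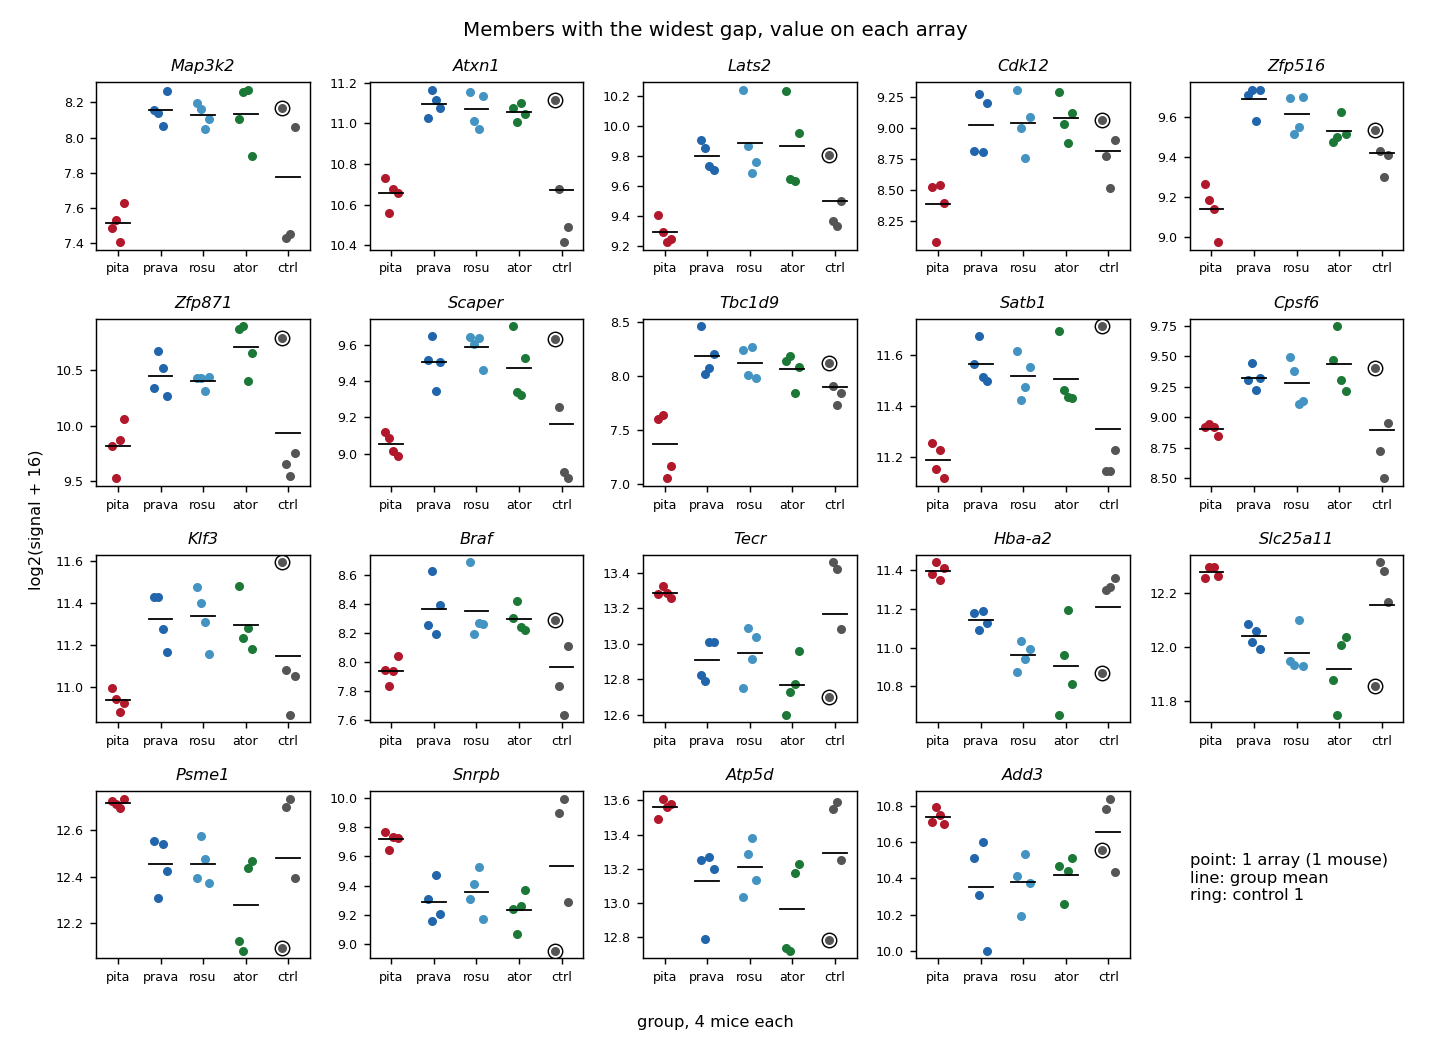
Each panel shows 1 gene's log2(signal + 16) on each of the 20 arrays (1 mouse each), with groups in the order pitavastatin, pravastatin, rosuvastatin, atorvastatin and control and the group mean as a line. In the first 12 panels the pitavastatin points lie below all 12 other statin points, and in the last 7 above them; the ringed control 1 lies with or beyond the other statins, and in each panel but those of Zfp516 and Tbc1d9 at least 1 other control reaches or passes the pitavastatin points.

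Among the kinases and signalling genes, all 6 members were lower in pitavastatin hearts. Map3k2, a kinase at the head of mitogen-activated protein kinase cascades, had the widest gap of all, 0.27. Its log2 signal was 7.49, 7.53, 7.41 and 7.63 in the 4 pitavastatin hearts, 7.89 to 8.27 (median 8.15) in the 12 hearts of the other statins and 8.17, 7.43, 7.45 and 8.06 in the 4 control hearts. Controls 2 and 3 thus stood with pitavastatin and controls 1 and 4 with the other statins, so the control hearts spanned the gap. Lats2, a kinase of the Hippo growth control pathway, read 9.40, 9.29, 9.22 and 9.25 in pitavastatin hearts, 9.63 to 10.24 (median 9.81) in the other statins and 9.80, 9.36, 9.33 and 9.49 in control hearts. Only control 1 of the 4 reached the range of the other statins. Cdk12, a kinase that phosphorylates the tail of RNA polymerase II, stood at 8.53, 8.08, 8.54 and 8.40 in pitavastatin hearts, against 8.76 to 9.31 (median 9.06) in the other statins and 9.06, 8.78, 8.52 and 8.90 in controls. Here 3 of the 4 controls lay within the range of the other statins and only control 3 lay among the pitavastatin values. Braf, the RAF kinase that activates MEK and ERK, was dim, as were Map3k2 above and Tbc1d9 and Mbd1 below. Braf read 7.95, 7.83, 7.94 and 8.04 in pitavastatin hearts, 8.19 to 8.69 (median 8.27) in the other statins and 8.29, 7.84, 7.64 and 8.11 in controls, of which controls 2 and 3 were as low as pitavastatin.

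Tbc1d9, which carries the domain of proteins that switch off Rab GTPases, had the largest ratio of the 46 probe sets, 1.69-fold lower in pitavastatin than in the other statins. Its values were 7.61, 7.64, 7.05 and 7.17 in pitavastatin hearts, 7.84 to 8.46 (median 8.11) in the other statins and 8.12, 7.91, 7.74 and 7.84 in controls. All 4 controls lay above all 4 pitavastatin hearts, and the pitavastatin mean differed from control by -0.54 ± 0.16 (log2, SE), the largest in size of any member for that comparison. It did not pass the limma test over all tested probe sets (adjusted p = 0.9999). Phactr2, a regulator of protein phosphatase 1 and actin, completes the group.

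Transcription and chromatin proteins gave 10 members, all lower in pitavastatin hearts. Atxn1, which represses transcription together with the factor capicua, gave 10.73, 10.56, 10.68 and 10.66 in pitavastatin hearts, 10.97 to 11.16 (median 11.07) in the other statins and 11.11, 10.68, 10.42 and 10.49 in controls. Control 1 lay among the other statins, and controls 2, 3 and 4 lay at or below the highest pitavastatin value, so that 3 of 4 untreated hearts were as low as pitavastatin. Zfp871, a zinc finger protein, read 9.81, 9.53, 9.87 and 10.06 in pitavastatin hearts, 10.27 to 10.89 (median 10.43) in the other statins and 10.79, 9.65, 9.54 and 9.76 in controls. The same split appears: control 1 high, the remaining 3 controls low. Satb1, which organises chromatin loops at matrix attachment regions, was brighter and tighter, with 11.25, 11.15, 11.23 and 11.12 in pitavastatin hearts, 11.42 to 11.69 (median 11.51) in the other statins and 11.71, 11.14, 11.15 and 11.23 in controls. Its control 1 was higher than each of the 12 arrays of the other statins, whose highest value was 11.69, and its other 3 controls lay inside the pitavastatin range.

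Zfp516, a zinc finger factor known from brown fat in mice, behaved differently in the control hearts. Its probe set is of a type that can also bind other transcripts. It read 9.26, 9.18, 9.14 and 8.97 in pitavastatin hearts, 9.48 to 9.73 (median 9.60) in the other statins and 9.53, 9.43, 9.30 and 9.41 in controls. All 4 controls exceeded all 4 pitavastatin hearts, and 3 of them fell inside the gap. The pitavastatin mean differed from control by -0.28 ± 0.08 (log2, SE), which did not pass (limma, adjusted p = 0.9999). Zfp516 and Tbc1d9 were the only 2 of the 46 members with all controls above all pitavastatin hearts, where 0.764% of tested probe sets had this order. Klf3, a repressor of the Krüppel-like family, read 10.99, 10.94, 10.88 and 10.92 in pitavastatin hearts, 11.16 to 11.48 (median 11.29) in the other statins and 11.59, 11.08, 10.87 and 11.05 in controls, with control 1 again the highest array.

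Of the remaining chromatin proteins, Brd1, the scaffold of a histone acetyltransferase complex, read 10.75, 10.42, 10.60 and 10.51 in pitavastatin hearts, 10.87 to 11.35 (median 11.04) in the other statins and 11.24, 10.90, 10.70 and 10.72 in controls. Pogz, a zinc finger protein that binds heterochromatin protein 1, read 9.63, 9.34, 9.62 and 9.46 in pitavastatin hearts, 9.74 to 10.26 (median 10.04) in the other statins and 10.22, 9.39, 9.71 and 9.73 in controls. Mbd1, which binds methylated CpG sites, read 7.90, 7.95, 8.08 and 8.03 in pitavastatin hearts, 8.18 to 8.60 (median 8.35) in the other statins and 7.99, 8.35, 8.12 and 8.14 in controls. Mbd1 was the exception to the pattern of control 1, which here lay with pitavastatin while control 2 lay with the other statins. Foxn3, a forkhead repressor, and Hand2, a helix-loop-helix factor needed to build the heart, were the other 2 members of the group.

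The RNA processing and silencing group held 7 probe sets of 6 genes, 6 of them lower and 1 higher in pitavastatin hearts. Cpsf6, a subunit of the cleavage factor that guides the choice of polyadenylation site, read 8.92, 8.94, 8.92 and 8.85 in pitavastatin hearts, 9.11 to 9.75 (median 9.31) in the other statins and 9.40, 8.72, 8.50 and 8.95 in controls. Its controls spread wider than any statin group, with control 1 among the other statins and controls 2 and 3 below all pitavastatin hearts. Ago4, an Argonaute protein that carries small RNAs, was the only gene with 2 member probe sets. The dimmer read 8.88, 8.81, 8.52 and 8.17 in pitavastatin hearts, 8.99 to 9.38 (median 9.14) in the other statins and 9.47, 8.78, 8.54 and 8.67 in controls. The brighter read 10.13, 10.09, 10.02 and 10.05 in pitavastatin hearts, 10.24 to 10.50 (median 10.37) in the other statins and 10.25, 10.16, 10.02 and 10.05 in controls. Both put control 1 with the other statins and controls 3 and 4 within or at the edge of the pitavastatin range. Since both read the same gene in the same mice, they are not independent observations.

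Tug1, a long noncoding RNA, read 9.74, 9.83, 9.86 and 9.86 in pitavastatin hearts, 9.98 to 10.73 (median 10.30) in the other statins and 10.22, 9.76, 9.83 and 9.98 in controls. Sepsecs, which makes the selenocysteine carried by its transfer RNA, read 9.10, 9.08, 9.16 and 9.20 in pitavastatin hearts, 9.32 to 9.89 (median 9.46) in the other statins and 9.40, 8.91, 9.10 and 9.16 in controls. In both, control 1 lay within the other statins and controls 2 and 3 within or below the pitavastatin range. Snrpb, which encodes the SmB core protein of the spliceosome, was the member that ran the other way, with 9.77, 9.65, 9.73 and 9.72 in pitavastatin hearts, 9.07 to 9.53 (median 9.28) in the other statins and 8.96, 9.90, 9.99 and 9.29 in controls. Its controls 2 and 3 were higher than every statin array and its control 1 was lower than every one, so its control hearts spread more than the statin hearts did. Lsm14a, a protein of cytoplasmic RNA granules, is the remaining gene.

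In the ubiquitin and protein turnover group, 4 members were lower and 1 higher in pitavastatin hearts. Rnf145, a ubiquitin ligase of the endoplasmic reticulum known to mark HMG-CoA reductase, the statin target, for degradation when sterols are plentiful, read 9.07, 9.01, 8.99 and 9.02 in pitavastatin hearts, 9.19 to 9.66 (median 9.35) in the other statins and 9.24, 8.97, 9.01 and 8.89 in controls. Controls 2, 3 and 4 lay within or below the narrow pitavastatin range, and control 1 lay just inside the range of the other statins. Dtx3l, a ubiquitin ligase that works with the ADP-ribosyltransferase Parp9, read 9.92, 9.94, 9.66 and 10.08 in pitavastatin hearts, 10.19 to 11.02 (median 10.39) in the other statins and 10.83, 9.65, 9.17 and 9.90 in controls. It had the largest difference of the other statins from control, 0.59 ± 0.20 (log2, SE), and the widest spread of controls among the members named here. Rnf115, another ubiquitin ligase, read 10.21, 10.24, 10.19 and 10.24 in pitavastatin hearts, 10.34 to 11.06 (median 10.43) in the other statins and 10.78, 10.20, 10.48 and 10.22 in controls, and controls 1 and 3 stood with the other statins. Psme1, a subunit of the proteasome activator PA28, was higher in pitavastatin hearts. It read 12.73, 12.71, 12.70 and 12.73 there, 12.08 to 12.58 (median 12.43) in the other statins and 12.09, 12.70, 12.74 and 12.39 in controls, with controls 2 and 3 at the pitavastatin level and controls 1 and 4 among the other statins. Vcpip1, a deubiquitinase that works with the ATPase p97, completes the group.

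Genes of membranes, lipids and the cytoskeleton gave 8 members lower and 2 higher in pitavastatin hearts. Scaper, an endoplasmic reticulum protein that binds cyclin A, read 9.12, 9.09, 9.01 and 8.99 in pitavastatin hearts, 9.33 to 9.70 (median 9.52) in the other statins and 9.63, 9.26, 8.90 and 8.86 in controls, of which controls 3 and 4 lay below every statin array. Tecr, the reductase of the last step in very long chain fatty acid elongation, had the widest gap of the probe sets higher in pitavastatin, 0.16. Its values were 13.28, 13.33, 13.29 and 13.26 in pitavastatin hearts, 12.60 to 13.09 (median 12.87) in the other statins and 12.70, 13.46, 13.42 and 13.08 in controls. Controls 2 and 3 lay above all pitavastatin hearts, and controls 1 and 4 lay among the other statins. Add3, the gamma subunit of the adducin that caps actin in the membrane skeleton, read 10.71, 10.79, 10.75 and 10.70 in pitavastatin hearts, 10.00 to 10.60 (median 10.43) in the other statins and 10.55, 10.78, 10.84 and 10.44 in controls. The others were Osbpl6, of the oxysterol-binding protein family, Serinc3, Sptbn1, a spectrin of the membrane skeleton, Ccdc47, a chaperone for membrane proteins of the endoplasmic reticulum, Tmem87b, Zdhhc24, of the palmitoyltransferase family, and Samd9l, an interferon-induced gene.

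Mitochondrial and haemoglobin genes were all 3 higher in pitavastatin hearts. Atp5d, the delta subunit of ATP synthase, had the largest ratio in this direction, 1.38-fold. It read 13.49, 13.61, 13.56 and 13.58 in pitavastatin hearts, 12.72 to 13.38 (median 13.19) in the other statins and 12.78, 13.55, 13.59 and 13.25 in controls. Slc25a11, the mitochondrial carrier of oxoglutarate and malate, read 12.26, 12.30, 12.30 and 12.26 in pitavastatin hearts, 11.75 to 12.10 (median 12.00) in the other statins and 11.86, 12.31, 12.28 and 12.17 in controls. Both had controls 2 and 3 at the pitavastatin level and control 1 with the other statins. Hba-a2, an alpha chain of adult haemoglobin, read 11.38, 11.44, 11.35 and 11.41 in pitavastatin hearts, 10.65 to 11.19 (median 11.01) in the other statins and 10.87, 11.30, 11.31 and 11.36 in controls, with controls 2, 3 and 4 close to pitavastatin and control 1 far below. The near-identical gene Hba-a1 may share these probes, so the reading cannot be given to 1 of the pair. Haemoglobin genes are marks of red cells, and in whole tissue fewer cells of a type and less RNA per cell cannot be told apart. Of 7 erythroid marker genes only Alas2, the first enzyme of haem synthesis in red cells, had a probe set with 1 symbol above the filter. Genes read only by probe sets with several symbols were not counted, however bright. Its level was 7.63 to 8.22 in pitavastatin hearts, 6.51 to 8.06 in the other statins and 7.32 to 8.60 in control hearts, and its part in the Hba-a2 values was not tested.

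The 12 genes so far named only by role (Phactr2, Foxn3, Hand2, Lsm14a, Vcpip1, Osbpl6, Serinc3, Sptbn1, Ccdc47, Tmem87b, Zdhhc24 and Samd9l) were all lower in pitavastatin hearts, by 1.19- to 1.41-fold, with gaps of 0.105 to 0.147. Control 1 lay within or above the range of the other statins at 12 of 12, and controls 2, 3 and 4 lay within or below the pitavastatin range at 8, 7 and 7. The 5 members with several symbols or none were also lower in pitavastatin, by 1.34- to 1.67-fold. There control 1 lay with the other statins at 5 of 5 and controls 2, 3 and 4 with pitavastatin at 4, 4 and 2.

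Placed against all members, the 4 control hearts did not act as 1 group. Each control array was assigned to the nearer of the pitavastatin mean and the mean of the other statins. Control 2 was nearer pitavastatin at 39 of 46 members, control 3 at 42 and control 4 at 35, while control 1 was nearer pitavastatin at 1 of 46. Over all 22518 tested probe sets the same arrays were nearer pitavastatin at 58.9%, 60.9%, 55.8% and, for control 1, 39.9%. The mean of the 4 controls was nearer pitavastatin at 30 members (25 of 39 and 5 of 7), against 54.0% of all tested probe sets. Without control 1 the count was 41, without control 2 it was 19 and without control 3 it was 18, so each of these 3 arrays moves it.

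**Figure D2:**
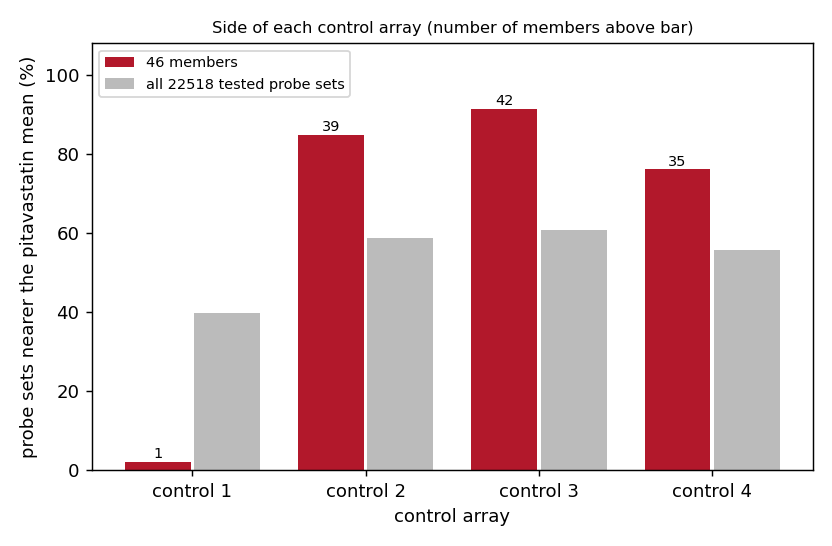
Bars give, for each control array, the percentage of the 46 members (red, with the number of members above) and of all 22518 tested probe sets (grey) at which that array was nearer the pitavastatin mean than the mean of the other statins. Controls 2, 3 and 4 lie nearer pitavastatin at 39, 42 and 35 members, and control 1 at 1.

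The mean over the members gives the same picture array by array. Over the 39 probe sets lower in pitavastatin, the mean log2 signal was 9.66 to 9.76 in pitavastatin hearts, 10.08 to 10.28 in the hearts of the other statins and 10.23, 9.77, 9.68 and 9.81 in controls 1 to 4. Over the 7 probe sets higher in pitavastatin it was 11.94 to 11.97 in pitavastatin hearts, 11.37 to 11.73 in the other statins and 11.40, 12.00, 12.03 and 11.71 in controls 1 to 4. Control 1 thus lay inside the range of the other statins in both sets, controls 2 and 3 lay inside or just outside the pitavastatin range, and control 4 lay by pitavastatin in the larger set and with the other statins in the smaller. That pitavastatin and the other statins part in these means follows from the selection.

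**Figure D3:**
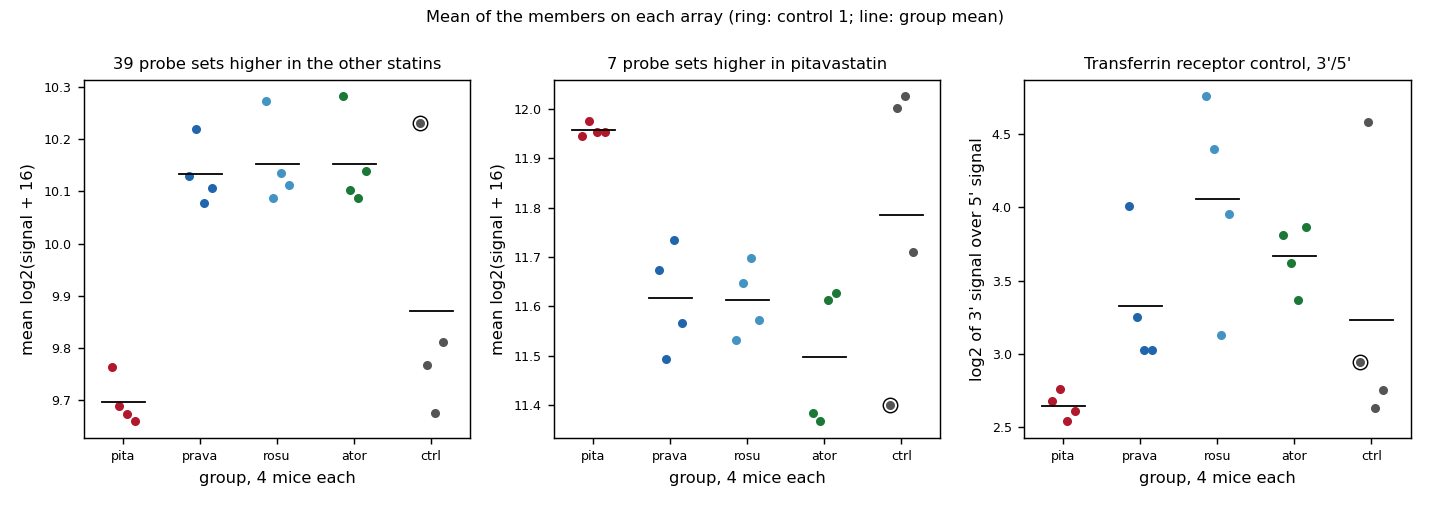
The first 2 panels show the mean log2(signal + 16) of the 39 and of the 7 member probe sets on each array, by group, with group means as lines and control 1 ringed. The last panel shows log2 of the 3' over 5' signal of the transferrin receptor control probe sets, which is 2.54 to 2.76 in pitavastatin hearts, 3.03 to 4.76 in the other statins and 2.63 to 4.58 in control hearts.

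Set against control, the members' differences were split between both sides. The 3 other statins together exceeded control at all 39 probe sets of the first set, by a median of 0.25 (0.09 to 0.59, log2), and lay below it at all 7 of the other, with a median of -0.21. The pitavastatin mean lay below control at 37 of the 39, with a median of -0.18 (-0.54 to 0.02), and above control at all 7, with a median of 0.18. Over all tested probe sets the medians were -0.03 for the other statins minus control and -0.0034 for pitavastatin minus control. Both comparisons use the same 4 control hearts. In the other statins minus control, the sign turned when each array was centred on its median for Psme1, 0.11 against -0.09 as deposited, and for Slc25a11, 0.01 against -0.18. With centring, the other statins lay above control at 39 of 39 and below it at 5 of 7, with medians of 0.44 and -0.02, where the median of all tested probe sets was 0.16. The signs are in part fixed by the choice of members, since a control mean that lies between both groups gives opposite signs by construction.

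None of these differences passed the test across all probe sets with all 4 controls in the fit. With limma and Benjamini-Hochberg adjustment over 22518 probe sets, the other 3 statins differed from control at 2 probe sets (0.00888%), and 0 members were among them. At an unadjusted p under 0.05, 31 of 46 members and 6.04% of all tested probe sets passed that comparison. Pitavastatin differed from control at 0 probe sets (0%) and so at 0 members, with 6 members and 1.93% of tested probe sets at an unadjusted p under 0.05. In both comparisons the statin arrays also made the selection, so a larger share among members is in part built in. Atxn1 came closest in the other statins against control, with 0.40 ± 0.09 (log2, SE; adjusted p = 0.198). In the comparison that made the selection, limma called 5 probe sets (0.0222%), of which Zfp516 and Tbc1d9 were members, and nothing is read from this. No member had its 4 controls all below the 12 arrays of the other statins (0.0977% of tested probe sets did) or all above them (0.0266%), and none had its 4 controls all below the 4 pitavastatin arrays (0.924%).

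The result of the other statins against control turned on control 1. Without it, limma called 71 probe sets (0.315%), of which 12 were members, 11 higher and 1 lower in the other statins. Without any other single array it called 0 probe sets, or 3 without atorvastatin 2. Without control 1, Atxn1 was 0.54 ± 0.06 higher than control (log2, SE; limma, adjusted p = 0.000634) and Zfp871 0.87 ± 0.11 (adjusted p = 0.00149). Of the genes given array by array, Dtx3l, Cpsf6, Satb1, Scaper and Tug1 followed with differences of 0.91, 0.62, 0.36, 0.51 and 0.45 and limma adjusted p of 0.0227, 0.0262, 0.0274, 0.0315 and 0.0402. Tecr was the member called lower, with -0.45 ± 0.09 (limma, adjusted p = 0.0402). The arrays of the other statins had also chosen the members, and control 1 lay on their side of the gap at 45 of 46. The small adjusted p of members are thus in part built in by the choice and by leaving control 1 out. The pitavastatin mean without control 1 lay close to the remaining 3 controls, with medians of -0.05 over the 39 probe sets and 0.05 over the 7, and 0 members were called. Control 1 carries no label that sets it apart, so the values with all 4 controls stand as the main ones.

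**Figure D4:**
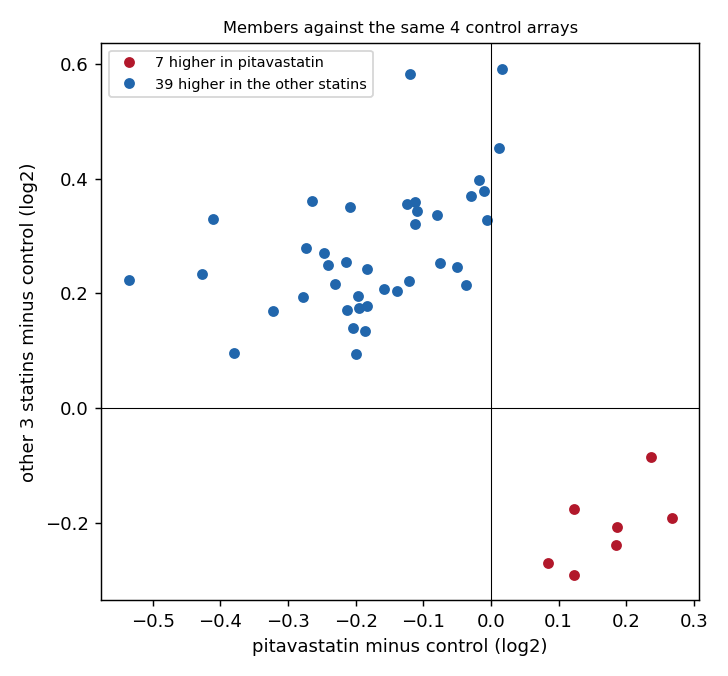
Each point is 1 of the 46 members, with pitavastatin minus control on the horizontal axis and the other 3 statins minus control on the vertical axis, both in log2 units. The 39 probe sets lower in pitavastatin lie at 0.09 to 0.59 on the vertical axis and -0.54 to 0.02 on the horizontal, and both axes share the same 4 control arrays.

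Among themselves the 3 other statins could be set side by side at the members, although the rule, which asked all 12 arrays to lie on 1 side of pitavastatin, favours probe sets at which they are close. The range of their 3 means had a median of 0.12 (log2) over the 46 members and 0.20 over all tested probe sets. Limma called 0 members, and 0 of all tested probe sets (0%), in each of pravastatin against rosuvastatin, pravastatin against atorvastatin and rosuvastatin against atorvastatin, where 718, 700 and 1236 tested probe sets, and 0, 1 and 1 members, had an unadjusted p under 0.05. The smallest adjusted p of a member over these 3 pairs was 0.749, which does not show that the statins act alike. For the 39 probe sets, the medians of pravastatin, rosuvastatin and atorvastatin minus control were 0.26, 0.26 and 0.26. For the 7, they were -0.17, -0.18 and -0.30, and atorvastatin had the lowest mean of the 3 at 6 of 7.

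How far the list rests on single arrays was measured by applying the rule without 1 statin array. All 46 members are chosen again in each such round by construction, and the additional probe sets are those at which the left-out array had narrowed the gap below 0.1, so the count of additional probe sets says how much each array limited the list. Without pitavastatin 1, 142 further probe sets met the rule. The number was 25, 37 and 38 without pitavastatin 2, 3 and 4. Among the arrays of the other statins it was lowest without rosuvastatin 1, at 1, and highest without rosuvastatin 3, at 38, followed by atorvastatin 2 with 35. Pitavastatin 1 limited the list more than any other statin array did.

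**Figure D5:**
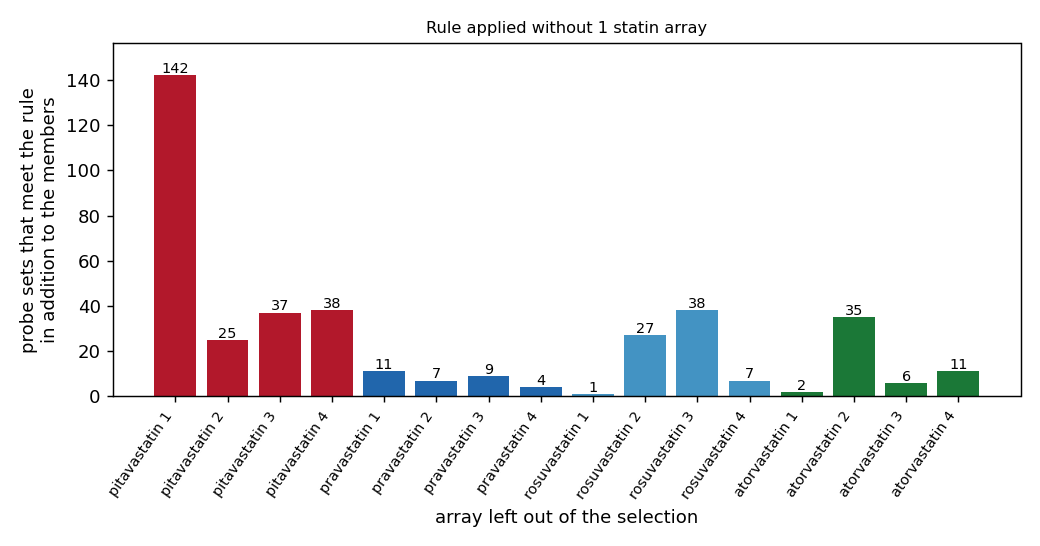
Bars give, for each statin array left out of the selection, the number of probe sets that met the rule in addition to the 46 members, with that number above the bar. It is 142 for pitavastatin 1, 25 to 38 for the other pitavastatin arrays and 1 to 38 for arrays of the other statins.

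Other probe sets of the same genes were read beside the members. Of the 40 member genes, 30 had further probe sets above the filter, 62 in all. For genes lower in pitavastatin, 41 of 57 further probe sets (71.9%) had a lower mean in pitavastatin hearts than in the other statins, with a median difference of -0.13 (-0.38 to 0.45, log2), and 2 of them showed no overlap between the groups. Of all 22518 tested probe sets, 207 lay lower in pitavastatin with no overlap. For genes higher in pitavastatin a higher mean in pitavastatin stood at 3 of 5 (60.0%), with a median of 0.09. Over all tested probe sets 58.4% had a higher mean in pitavastatin and the median difference was 0.05, so the 3 of 5 lay near the share of all probe sets. These rows come from the same hearts and the contrast that made the selection, so they are given with no test. A further Tug1 probe set differed by -0.38 and another by 0.03, while Lats2 had further probe sets at -0.33, 0.15 and 0.30, so probe sets of 1 gene disagreed in sign. Those of Braf stood at -0.05, -0.26, -0.19, 0.45 and 0.43 and those of Cdk12 at 0.16, 0.17 and -0.14. The only further probe sets of Snrpb and Brd1 differed by -0.02 and 0.19, against the direction of their members. For Map3k2 the further probe set was brighter and differed by -0.18, with overlap between the groups. The values given for a member are thus those of its probe set.

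The arrays themselves were scaled alike by the authors, to a trimmed mean signal of 500.0, but differed in shape: rosuvastatin 3 had the lowest median signal, 41.7, and atorvastatin 2 the highest, 144. The scaling bears on the list. Centring each array on its median gave a median difference of -0.11 between pitavastatin and the other statins over all probe sets, against 0.05 as deposited, and the rule then chose 11 probe sets (7 lower and 4 higher in pitavastatin, or 63.6% lower, against 84.8% in the main list), of which 2 were among the 46. All 46 members kept the direction of their means under centring, and 5 of 46 kept a gap. Quantile normalization gave 54 probe sets (39 lower and 15 higher in pitavastatin, 72.2% lower), with 25 of the 46 among them.

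One measure of the RNA parted the statin arrays in the same way. The array carries control probe sets at the 3' and 5' ends of some transcripts, and a high ratio of the 3' to the 5' signal goes with short or degraded copies. For the transferrin receptor the log2 ratio was 2.68, 2.76, 2.54 and 2.61 in pitavastatin hearts, 3.03 to 4.76 (mean 3.68 ± 0.55, SD, n = 12) in the other statins and 2.95, 4.58, 2.63 and 2.76 in controls 1 to 4. The 5' signals behind it were low, 48.7 to 92.2 in pitavastatin hearts, 11.3 to 84.9 in the other statins and 12.5 to 100.3 in controls. No pitavastatin heart reached the log2 ratios of the other statins, and control 1, which stood with the other statins at the members, stood nearer pitavastatin here, while control 2 did the reverse. The ratios of Gapdh, actin and pyruvate carboxylase differed by 0.02, -0.05 and -0.22 between pitavastatin and the other statins. These control probe sets took no part in the selection. The transferrin receptor ratio differed by -1.04 between pitavastatin and the other statins (exact permutation test, two-sided, p = 0.0011, 0.0429 after adjustment over 39 measures and comparisons tested in this way), and no other of the 39 passed after adjustment. The difference from control was -0.58 for pitavastatin (exact permutation test, two-sided, p = 0.143) and 0.45 for the other statins (exact permutation test, p = 0.243) in the transferrin receptor ratio. With 4 against 4 arrays such a test cannot go below 0.0286, and the adjusted p over the 39 was 0.918 for both. The part of this ratio in the members' values was not tested, and a fit with it as a covariate is given with the other settings.

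Cell markers and gene groups were read beside the members as differences between pitavastatin and the other statins, with counts that carry no test, since that contrast made the selection. Only the mean level of each cell marker list was tested, among the 39 above: the lowest p in this contrast was that of the erythroid list, with 1 measured marker and a difference of 0.44 (exact permutation test, p = 0.0407, adjusted p = 0.793), and for cardiomyocyte markers it was 0.104 (adjusted p = 0.918). Of 20 cardiomyocyte markers 19 had a higher mean in pitavastatin (median 0.23, log2), and their mean level was 14.46 to 14.62 in pitavastatin hearts, 13.90 to 14.71 in the other statins and 14.25 to 14.54 in controls. Fibroblast, endothelial and macrophage markers had medians of 0.02, 0.12 and 0.01, and smooth muscle and adipocyte markers 0.04 and 0.18. Oxidative phosphorylation genes were higher in pitavastatin at 34 of 35, with a median of 0.22, on the side of Atp5d and Slc25a11. None of the other lists but that of nuclear retained RNAs, which has Tug1, holds a member. Several leaned the other way: mRNA decay factors were lower at 21 of 23 (median -0.11), SR and hnRNP splicing factors at 23 of 28 (-0.13), chromatin remodellers and lysine methyltransferases at 20 of 25 (-0.14), ubiquitin ligases and deubiquitinases at 24 of 28 (-0.11), circadian clock genes at 12 of 15 (-0.19), stress and immediate early genes at 13 of 17 (-0.09) and insulin, PI3K and mTOR signalling at 15 of 21 (-0.06). Like lists did so less or not at all: nuclear retained RNAs were lower at 6 of 9 (-0.017), heterochromatin and Polycomb genes at 12 of 21 (-0.04), the CTLH ubiquitin ligase at 5 of 9 (-0.07), the Mediator complex at 14 of 30 (0.03), AMP-activated kinase genes at 8 of 15 and channels of the heart at 9 of 20 (0.08). Cholesterol synthesis genes lay at 0.06, near the 0.05 of all tested probe sets. Of all tested probe sets, 58.4% had a higher mean in pitavastatin. Centring each array on its median moved the median of all tested probe sets to -0.11, and the lists are given here only as deposited. Each list gene was read only by its brightest tested probe set with 1 symbol, and other probe sets of these genes were not counted. At those brightest probe sets none was called in pitavastatin or in the other statins against control (limma, adjusted over all tested probe sets). The 2 probe sets called in the other statins against control were not among them. The part of any list in the members' values was not tested.

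The members differed in gene length, which the rule did not use. The genes lower in pitavastatin spanned a median of 46.7 kb (3.54 to 415 kb, 33 genes), the genes higher in pitavastatin 7.13 kb (0.819 to 107 kb, 7 genes) and all tested genes 25.1 kb (11192 genes). Of the 33, 25 were longer than the median of all tested genes, and of the 7 only Add3 was. Length was not tested as a predictor of the difference.

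Promoters, taken from RefSeq as 300 bases around each gene's start on GRCm38.p6, were available for 33 of the 40 member genes. They are shown for a pair of genes from either side of the list, to let the base composition be seen. Cdk12 (chr11:98203055-98203354, plus strand) and Tbc1d9 (chr8:83165102-83165401, plus strand) were lower in pitavastatin, and Tecr (chr8:83594442-83594741, minus strand) and Hba-a2 (chr11:32296242-32296541, plus strand) were higher. Capitals mark the motifs found on either strand, which in these 4 windows were the GC box, searched as GGGCGG, and the CCAAT box. The CCAAT box was searched as ATTGG, and no hits overlapped.
Cdk12: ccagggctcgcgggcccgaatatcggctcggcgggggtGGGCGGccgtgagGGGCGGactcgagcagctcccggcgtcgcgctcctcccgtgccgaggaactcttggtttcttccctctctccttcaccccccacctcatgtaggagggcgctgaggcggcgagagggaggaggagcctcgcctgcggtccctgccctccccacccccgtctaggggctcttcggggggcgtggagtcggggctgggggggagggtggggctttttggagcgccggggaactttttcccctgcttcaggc
Tbc1d9: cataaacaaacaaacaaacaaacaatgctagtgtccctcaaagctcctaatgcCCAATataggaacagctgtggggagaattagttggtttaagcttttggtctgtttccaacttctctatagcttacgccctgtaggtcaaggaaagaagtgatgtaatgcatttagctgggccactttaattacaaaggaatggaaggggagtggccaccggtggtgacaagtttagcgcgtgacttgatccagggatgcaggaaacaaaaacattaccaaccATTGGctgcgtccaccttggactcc
Tecr: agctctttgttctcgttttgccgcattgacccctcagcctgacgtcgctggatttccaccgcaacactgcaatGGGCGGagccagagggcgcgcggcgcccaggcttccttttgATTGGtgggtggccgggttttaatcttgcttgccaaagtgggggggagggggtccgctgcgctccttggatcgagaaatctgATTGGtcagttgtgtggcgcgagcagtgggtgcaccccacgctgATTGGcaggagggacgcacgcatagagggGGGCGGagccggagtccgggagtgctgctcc
Hba-a2: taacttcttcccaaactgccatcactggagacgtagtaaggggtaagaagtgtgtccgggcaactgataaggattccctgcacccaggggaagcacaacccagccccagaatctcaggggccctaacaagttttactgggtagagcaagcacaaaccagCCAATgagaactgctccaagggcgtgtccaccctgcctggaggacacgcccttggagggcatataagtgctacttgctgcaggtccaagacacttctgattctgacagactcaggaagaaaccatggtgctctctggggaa

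Within each direction the promoters were unlike each other. Cdk12 was 71.3% G and C with 27 CpG sites and Tbc1d9 45.0% with 5, although both were lower in pitavastatin. Tecr was 62.7% with 22 CpG sites and Hba-a2 53.3% with 4. Over the promoters of members lower in pitavastatin the median was 60.0% G and C, over those higher 54.0%, and over all tested genes 60.7%. A gene can have several promoters: those of the members lower in pitavastatin were 39 promoters of 27 genes, and those of the members higher 9 promoters of 6 genes. GC boxes stood in 24 of the 39 (61.5%), in 5 of the 9 (55.6%) and in 61.1% of the promoters of all tested genes. The shares for the CCAAT box were 30.8%, 44.4% and 37.1%. The sterol regulatory element TCACCCCAC, a motif of the factors that raise cholesterol synthesis genes when sterols are low, was found in 1 of 39, 0 of 9 and 0.589% of all. The E-box CACGTG stood in 4 of 39, 1 of 9 and 9.69% of all tested genes' promoters. For the ETS motif, searched as CCGGAAG, the counts were 1 of 39 and 0 of 9, against 16.7% of all. The TATA box, searched as TATAAA, was in 1 of 39, 1 of 9 and 7.86% of all. The other motifs searched, TGACGTCA of cyclic AMP response, ATGGCGGC of YY1 and the NRF1 motif, were in 1, 1 and 0 of 39 and in 0 of 9 each, against 2.83%, 4.67% and 2.02% of the promoters of all tested genes. A match of letters is a description of these windows and says nothing of whether a factor binds there.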

How the data were processed

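Total RNA from the left ventricle of each mouse was amplified from 100 ng, labelled and hybridised to a whole-genome mouse GeneChip (Affymetrix), per the labels' protocols. The deposited values are linear signal intensities that the authors computed (MAS5 is the tool in the submitters' processing notes), and the version is not given in the sources used here. The mean without the lowest and highest 2% of values was 500.0 on all 20 arrays, so they share a scale.

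After adding 16, log2 values were taken. The 64 control probe sets were left out and the brighter 50% of the 45037 others by mean log2 value over 20 arrays kept, leaving 22518. The cut, a mean of log2(signal + 16), equals the log2 value of a signal of 81.8. Symbols come from the platform annotation: 34945 probe sets have 1, 932 several and 9160 none, and 34741 matched the reference gene table. Members and gene lists were chosen with earlier results of these data known, and the grouping of members by role was made after the members were known. Genes given array by array are those with 1 symbol and the widest gaps (12 in each direction, or all), genes with several member probe sets, those at the threshold, and those whose controls lie farthest to either side. Members that belong to the gene lists, such as Tug1, are also given array by array. The other member genes are named only by role.

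The test of differences from control was limma 3.58.1 (R 4.3.3): 1 mean per group over 20 arrays, empirical Bayes with a trend (15 residual and 4.23 prior degrees of freedom), Benjamini-Hochberg over 22518 probe sets, calls at 0.05. Errors of differences are standard errors from that fit. The number of arrays limits the precision. In a simulation drawn from the observed spread, for pitavastatin minus the other statins over 22518 probe sets, 85.0% of 200 probe sets changed 2-fold were recovered with 6 false calls. That change is larger than any member's, the simulated noise was independent between arrays, and no comparison with control was scored. The simulation therefore does not say how well differences from control of the members' size would be found. Array measures were compared by exact permutation. The labels number the replicates 1 to 4 in each group, and the main fit did not pair arrays by number. Other settings were quantile normalization, median centring, pseudocounts of 1 and 64, no filter, the brightest 30%, no trend, array weights, the replicate block, only the groups compared, other gaps, and each array left out. The covariates were added after seeing the data. Figures were drawn with matplotlib 3.10.9 in Python 3.11.15.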

Additional observations from a re-analysis of the deposited data

Results flagged for a closer look

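In 12 of 190 groups of 4 arrays tested, 1 array lay far from the other 3, where chance gives about 1 in 20. Control 1 was low for Hba-a2, at 10.87 against 11.30 to 11.36 in the other controls, and high for Satb1, at 11.71 against 11.14 to 11.23. Atorvastatin 1 was also high for Satb1, at 11.69 against 11.43 to 11.46. Rosuvastatin 3 was high for Slc25a11, at 12.10 against 11.93 to 11.95, and low for Zfp871, at 10.31 against 10.43 to 10.44. Rosuvastatin 1 was high for Braf, at 8.69 against 8.20 to 8.27, and for Dtx3l, at 11.02 against 10.24 to 10.29. Pravastatin 2 was low for Atp5d, at 12.79 against 13.20 to 13.27, and pravastatin 3 was low for Zfp516, at 9.58 against 9.71 to 9.73.

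Of the 3' to 5' log2 ratios, the transferrin receptor ratio was high in control 2, at 4.58 against 2.63 to 2.95, the actin ratio was low in pravastatin 2, at 2.01 against 2.30 to 2.33, and the pyruvate carboxylase ratio was high in rosuvastatin 3, at 3.01 against 1.79 to 1.86. The cause of each was not tested.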

How the results depend on the processing

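The rule chose 46 probe sets as the main setting, 11 with arrays centred on their median, 298 with any gap above 0, 8 with a gap of 0.2 and 46 to 188 with 1 array left out, which makes the rule easier to meet. The control mean was nearer pitavastatin at 30 of the 46 as the main value. It was so at 10 of 11 with centring, 167 of 298 with any gap and 5 of 8 with a gap of 0.2. With 1 array left out the count ran from 18 of 46 without control 3 to 84 of 188 without pitavastatin 1, so the totals differ. The other statins against control gave 2 called probe sets, 0 with centring, with no filter, with no trend or with only the groups compared, 66 with array weights, 6 with the median signal as a covariate and 0 to 71 with 1 array left out. The 71 came without control 1. Pitavastatin against the other statins gave 5 called probe sets (2 of them members), 17 with quantile normalization or the brightest 30%, 0 with centring, 1374 with array weights, 112 with only the groups compared, 254 with the median signal and 0 with the transferrin receptor ratio as a covariate. With 1 array left out it gave 0 to 154, the highest without control 1. Pitavastatin and the other statins do not overlap in the transferrin receptor ratio, so that fit cannot well tell the ratio from the groups. With this covariate the other statins against control gave 2 calls. The members' median differences from control were then 0.25 over the 39 and -0.20 over the 7 for the other statins, against 0.25 and -0.21 in the main fit. For pitavastatin they were -0.17 and 0.18, against -0.18 and 0.18. Pitavastatin against control gave 0 under every setting run. The sign of a single named gene turned with centring for Psme1 (0.11) and Slc25a11 (0.015) in the other statins minus control. The causes were not tested. Replicates that share a number had a median correlation of 0.08 (-0.54 to 0.69), against -0.04 (-0.76 to 0.74) for pairs of other numbers. The nearest array was sought only in other groups, and for 7 of 20 arrays it had their own number. Of the pairs between groups, 40 shared a number and 120 did not. This check does not exclude a structure shared by arrays of the same number. With the replicate block the other statins against control gave 1 call and pitavastatin against the other statins 183. With all 4 controls in the fit 0 members passed against control. Without control 1, 12 did in the other statins and 0 in pitavastatin, in fits whose statin arrays had also chosen the members.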
